A study of Mus musculus with 4 samples.

Results

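Claudins and their partner proteins at the tight junction were followed in sorted mouse alveolar epithelial type II (AT2) cells, which make and recycle surfactant in the lung. The set holds 9 genes, taken by symbol from the 22565 genes of the deposited table: the claudins Cldn3, Cldn4, Cldn7 and Cldn18, the membrane proteins Ocln, Marveld2 and F11r, and the scaffolds Tjp1 and Tjp3. RNA was measured by ribosomal RNA-depleted, stranded sequencing in 2 libraries labelled knockout (KO) and 2 libraries of wild type (WT), from untreated mice that were 6 months old. The genotype field of KO replicate 1 names Fbxo45, an F-box protein that binds the substrates of a ubiquitin ligase, and that of KO replicate 2 names Fbxo46, while the growth protocol writes Fbxo45-cKO. The sources used here do not give which cells carried the deletion or what drove it, and the labels do not tell whether each library is a different animal. The spread behind every p-value is therefore that between libraries and may be technical. As the genotype fields differ, the spread between the KO-labelled libraries may also hold a difference of genotype, which cannot be told apart.

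Tight junctions close the space between neighbouring epithelial cells near their apical side. Claudins form the strands and set which ions and solutes pass between cells, occludin and tricellulin shape the strands and the corners where several cells meet, junctional adhesion molecule A helps to position the junction, and the zonula occludens scaffolds tie all of them to the actin cytoskeleton. In the alveolus this seal keeps fluid out of the airspace. Cldn18, Cldn3 and Cldn4 are the claudins best known from alveolar epithelium, and Cldn4 is known to be raised in injured lung.

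The libraries held 9507416 and 7066414 fragments in KO replicates 1 and 2, and 4167131 and 8200202 in WT replicates 1 and 2. Fbxo45 was at 4.41 and 7.58 FPKM (fragments scaled to transcript length and library size) in the KO-labelled libraries, against 4.6 and 5.91 FPKM in WT. Fbxo46 was at 3.82 and 4.80 FPKM in KO-labelled libraries, against 4.13 and 3.79 FPKM in WT, so neither named target was lower throughout the KO label, and values per gene do not resolve a deleted exon. Summed AT2 markers reached 81738 and 116501 FPKM in the KO-labelled libraries, against 130293 and 124049 FPKM in WT, and all 10 were detected. Without Sftpc, which carries that sum, the other 9 reached 27280 and 28817 FPKM in the KO-labelled libraries, against 28749 and 29065 FPKM in WT, with overlap. By FPKM 5 of the 10 were higher and 5 lower in the KO-labelled libraries. With edgeR on fragments recovered from the deposited counts, 2 were higher and 8 lower (median log2 difference -0.16). In both units 3 (Sftpc, Sftpd and Nkx2-1) were below WT in both KO-labelled libraries and 0 were above. Over all genes tested, 11.5% were below and 11.8% above in this way. Of 8 endothelial markers the sum was at most 2.55 FPKM in any library, and of 8 macrophage and leukocyte markers it was 16.8 and 8.54 FPKM in the KO-labelled libraries, against 11.002 and 8.07 FPKM in WT, with Adgre1, Marco and Cd3e at 0 in all 4. Fibroblast and smooth muscle markers, 8 genes, summed to 40.8 and 37.2 FPKM in the KO-labelled libraries, against 39.5 and 15.8 FPKM in WT, and 5 of 5 tested were higher, 0 of them called. KO replicate 1 stood apart in that 8 fast skeletal muscle genes summed to 1056 FPKM there, against 7.84 FPKM in KO replicate 2 and 0.159 and 9.48 FPKM in WT. Over the tested genes the KO-labelled libraries had the lowest correlation of log2 FPKM of the 6 pairs, 0.906, and the WT libraries the highest, 0.971.

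The 9 genes covered a wide range of levels, in an order that was nearly the same in every library. By mean FPKM over the 4 libraries Cldn18 came first at 452, followed by Cldn3 at 146, F11r at 54.4, Cldn7 at 42.9, Tjp1 at 40.4, Ocln at 16.2, Tjp3 at 15.7, Marveld2 at 10.8 and Cldn4 at 0.272. Cldn18 ranked 57th and Cldn3 282nd of all 22565 genes. The ranges over the 4 libraries overlapped between neighbours for F11r and Cldn7, for Cldn7 and Tjp1, and for Ocln and Tjp3, and these neighbours cannot be ordered. Cldn18 lay 3.08-fold above Cldn3 on average and Cldn3 2.69-fold above F11r, with no overlap. FPKM is a level per length, but the length used for each library is not known here. For Cldn7, Ocln, Tjp1, F11r and Marveld2 the deposited count per FPKM differed between libraries, so levels of these genes are less certain.

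**Figure D1:**
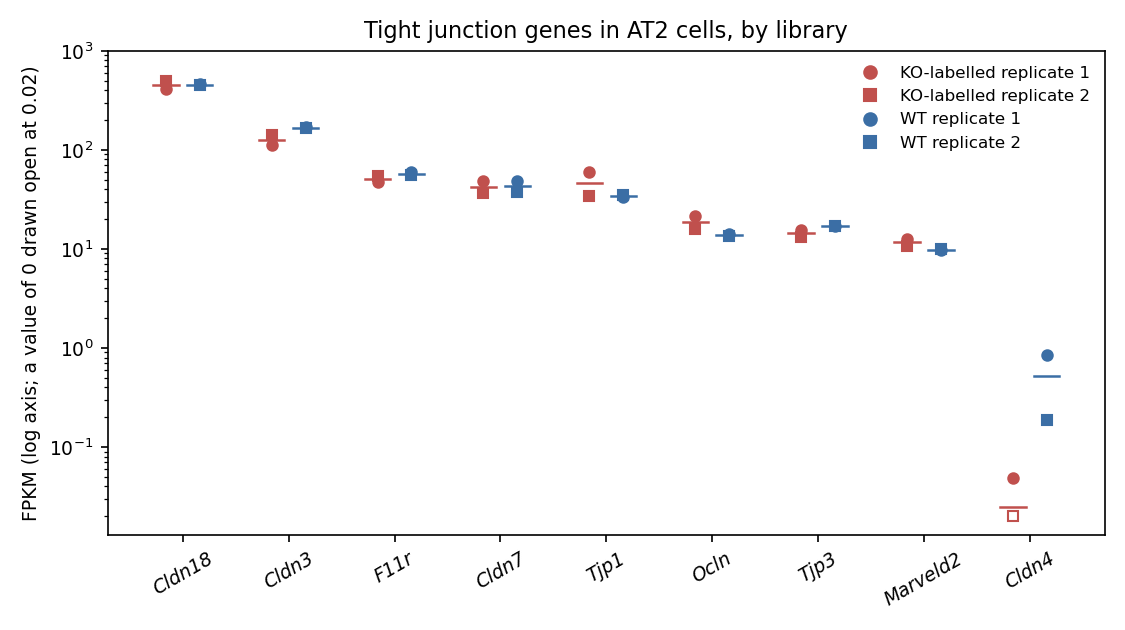
FPKM of the 9 tight junction genes (log axis) in the KO-labelled libraries (red) and WT libraries (blue), genes ordered by mean level, with a short line at each group's mean (n = 2 each). Cldn18 (mean 452 FPKM) stands at the top in all 4 libraries and Cldn4 (mean 0.272 FPKM) at the bottom, and the groups lie close together for most genes.

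None of the tested genes of the set passed the test between KO-labelled and WT libraries. With limma on log2(FPKM + 1), 0 of 8 passed an adjusted p of 0.05, and 0 of 11055 genes tested did (0%). At an unadjusted p under 0.05 there were 0 of these 8 genes and 4.84% of all genes tested. edgeR on fragments recovered from the deposited counts called 0 of the 8 and 0% of 11705 genes, and 3.18% reached an unadjusted p under 0.05. DESeq2 called 0.0553% of 12651 genes, none of them among the 8 genes of the set that it gave an adjusted p. Cldn4 was below the filter of 1 FPKM in at least 2 libraries and was not tested by limma. The 8 log2 differences had a median of -0.022, with 3 higher and 5 lower in the KO-labelled libraries, beside a median of 0.035 and 54.1% higher over all genes tested.

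Counting how often the groups lay apart gives a second view. In FPKM, both KO-labelled libraries were below both WT libraries for 3 of the 8 tested genes (Cldn3, Tjp3 and F11r), where 15.1% of all tested genes were, and above both for 2 (Ocln and Marveld2), where 20.0% were. In CPM (counts scaled to library size) of recovered fragments, 4 were below (Cldn3, Cldn7, Cldn18 and Tjp3), against a background of 17.1%, and 2 above (Marveld2 and F11r), against 16.4%. In both units at once, Cldn3 and Tjp3 were below, with 11.5% of all genes, and Marveld2 was above, with 11.8%. These 3 of 8 stand beside 23.3% of all genes that lay apart the same way in both units. The KO-labelled libraries lay further from each other, with a median gap of 0.295 on the log2 scale over the 8 genes, against 0.0541 between the WT libraries. Over all genes tested the median gap was 0.409 between the KO-labelled libraries and 0.184 between the WT libraries. The gap was larger between the KO-labelled libraries for 8 of 8 genes, and for 71.5% of all genes tested.

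**Figure D2:**
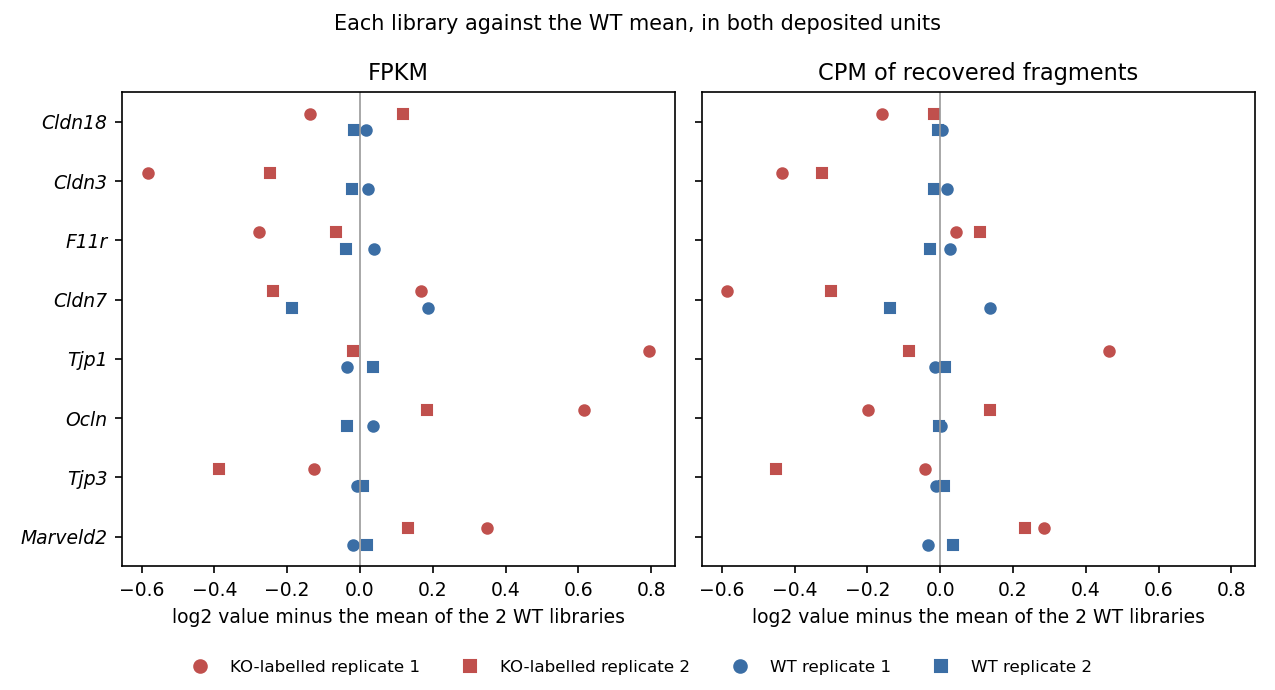
Log2 value of each library minus the mean of the WT libraries, in FPKM (left) and in CPM of recovered fragments (right), for the 8 tested genes, with KO-labelled libraries in red and WT in blue. Cldn3 is left of WT in both panels and Marveld2 right of it, while Cldn18, Ocln, Cldn7 and F11r change their place relative to WT between the panels.

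Cldn18 was the main claudin of these cells and its group means were nearly equal. It was at 411 and 491 FPKM in KO-labelled libraries, against 458 and 447 FPKM in WT. The means were 451 ± 56.6 FPKM in KO-labelled and 452 ± 7.78 FPKM in WT libraries (SD, n = 2 each), with the WT values inside the KO-labelled range. limma gave a log2 difference of -0.01 (SE 0.205, 95% interval -0.51 to 0.49, adjusted p = 0.996). In fragments it was at 1189 and 1312 CPM in the KO-labelled libraries, against 1334 and 1323 CPM in WT, where KO replicate 1 was lowest and the counting intervals of the other libraries overlapped. Cldn18 is known to have an upstream first exon used in lung and a downstream one used in stomach, and the values per gene do not separate them.

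Cldn3, the second claudin of AT2 cells, was lower in both KO-labelled libraries in both units. It was at 111 and 141 FPKM in KO-labelled libraries, against 169 and 164 FPKM in WT, and the groups did not overlap. The means were 126 ± 20.6 FPKM in KO-labelled and 167 ± 3.54 FPKM in WT libraries (SD, n = 2 each). With a log2 difference of -0.41 (SE 0.206, 95% interval -0.92 to 0.09), 0.751-fold on the log2(FPKM + 1) scale, Cldn3 did not pass (limma adjusted p = 0.948). The fragments gave 162 CPM (154 to 170, exact 95% counting interval) and 174 CPM (165 to 185) in the KO-labelled libraries, against 221 CPM (207 to 236) and 216 CPM (206 to 226) in WT. Intervals of the 2 groups did not touch, and edgeR put the difference at -0.38 (adjusted p = 0.999).

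The Cldn3 transcript has the highest GC content of the set, 62.7%, and is the shortest, at 1259 bases. Levels over all tested genes moved with GC content, mainly in KO replicate 2. Among the tested genes with the highest GC content (from 53.0% up), KO replicate 1 had a median log2 value of -0.038 relative to the WT mean and KO replicate 2 one of -0.15. Among those with the lowest (up to 46.7%), KO replicate 1 had a median of -0.0010 and KO replicate 2 one of 0.25. After each library was corrected by a loess trend on transcript length and GC content, a setting chosen after seeing the data, the log2 difference of Cldn3 was -0.04. Tjp3, at 60.7% GC, likewise had a difference of -0.04 after the correction, against -0.24 without it. Ocln moved from 0.38 to 0.24, Marveld2 from 0.22 to 0.14 and Tjp1 from 0.38 to 0.26. F11r moved away from 0, from -0.17 to -0.24, as did Cldn18, from -0.01 to -0.10. Cldn7 turned from -0.03 to 0.09. Without the correction, the difference of Cldn3 was -0.25 when KO replicate 1 was left out and -0.58 when KO replicate 2 was. Length and GC content were corrected together. Their separate parts, and their part in the difference of Cldn3, were not tested.

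**Figure D3:**
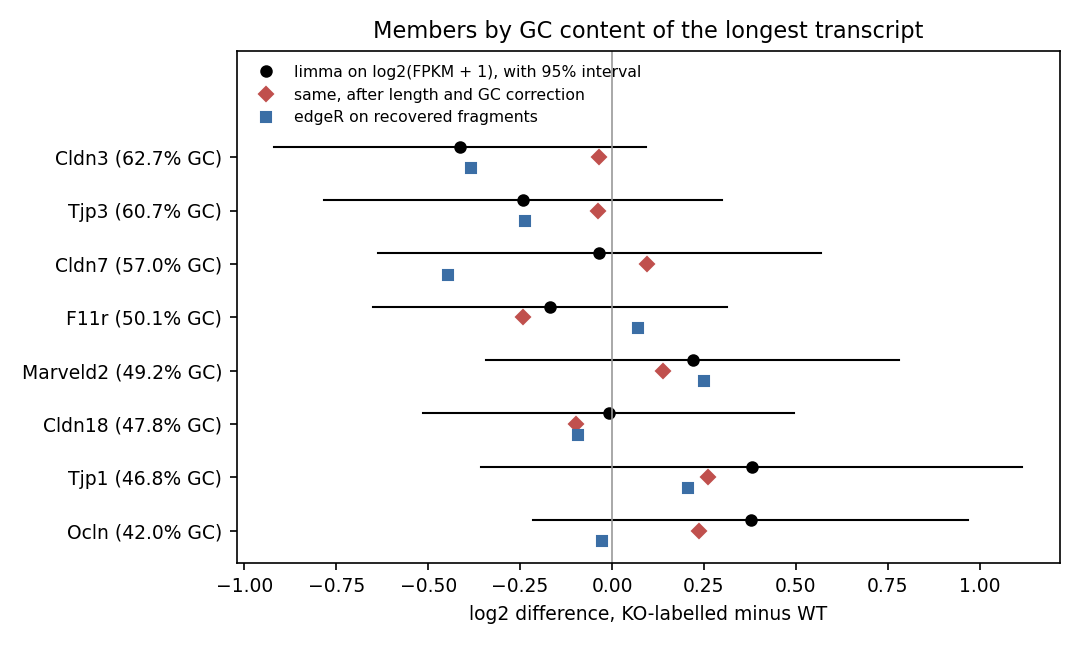
Log2 difference, KO-labelled minus WT, of the 8 tested genes, ordered from the highest GC content of the longest transcript (top) to the lowest (bottom). Black circles show the limma estimate with its 95% interval, red diamonds the same after a correction for transcript length and GC content, and blue squares edgeR on recovered fragments. All 8 intervals include 0. With the correction Cldn3 moves from -0.41 to -0.04 and F11r from -0.17 to -0.24.

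Cldn4, a sealing claudin that lies beside Cldn3 in the genome, was at or near 0 in every library. Its FPKM values were 0.0492 and 0 in the KO-labelled libraries, against 0.853 and 0.185 in WT. These rest on 1 and 0 fragments in the KO-labelled libraries, against 7 and 3 in WT. Summed over a group, 1 fragment gave 0.0603 CPM (exact 95% counting interval 0.00153 to 0.336) in the KO-labelled libraries, against 10 fragments and 0.809 CPM (0.388 to 1.49) in WT. The intervals of the sums do not overlap, but they cover counting error only, and WT replicate 1 holds 7 of the 10 WT fragments. With no filter edgeR tested all 9 genes and called none, beside 0.0326% of 15326 genes, and Cldn4 had an adjusted p of 0.999. A count of 0 allows up to 0.425 CPM in KO replicate 2 (3 fragments), and the exact interval there reaches 0.522 CPM. WT replicate 2, at 0.366 CPM, lies below these limits, and WT replicate 1, at 1.68 CPM, above them.

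The promoters of Cldn18, the claudin at the highest level, and of the neighbours Cldn3 and Cldn4, at 146 and 0.272 FPKM on average, are shown. Cldn3 (chr5:134986214-134987472, plus strand) and Cldn4 (chr5:134945119-134946934, minus strand) point away from each other, with 39.28 kb between their start sites in GENCODE M21 (GRCm38, also called mm10). Each gene has a single transcript in that annotation. Each line gives the 250 bases before the start site, 5′ to 3′ on the strand of the gene, from RefSeq on GRCm38.p6. The windows are chr5:134985964-134986213 (plus strand) for Cldn3, chr5:134946935-134947184 (minus strand) for Cldn4, and chr9:99717268-99717517 and chr9:99710064-99710313 (both minus strand) for the upstream and downstream start sites of Cldn18. Capitals mark matches on either strand to an AP-1 site (TGANTCA), an E2 box (CAGGTG), which Snail and Zeb repressors are known to bind, and a GC box (GGGCGG).
Cldn3: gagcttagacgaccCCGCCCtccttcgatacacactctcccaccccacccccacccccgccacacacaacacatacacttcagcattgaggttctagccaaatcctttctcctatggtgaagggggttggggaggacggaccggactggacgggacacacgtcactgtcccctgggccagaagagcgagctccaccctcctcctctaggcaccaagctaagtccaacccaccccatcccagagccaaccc
Cldn4: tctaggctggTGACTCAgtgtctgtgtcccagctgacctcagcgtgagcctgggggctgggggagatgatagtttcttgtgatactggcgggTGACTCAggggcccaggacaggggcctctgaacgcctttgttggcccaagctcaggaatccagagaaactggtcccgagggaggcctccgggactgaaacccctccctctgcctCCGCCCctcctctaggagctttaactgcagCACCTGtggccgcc
Cldn18 upstream start: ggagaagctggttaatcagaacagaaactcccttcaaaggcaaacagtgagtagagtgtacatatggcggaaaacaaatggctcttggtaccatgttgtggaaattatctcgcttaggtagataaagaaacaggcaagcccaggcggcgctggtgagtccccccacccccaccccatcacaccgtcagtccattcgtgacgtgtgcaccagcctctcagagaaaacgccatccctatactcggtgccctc
Cldn18 downstream start: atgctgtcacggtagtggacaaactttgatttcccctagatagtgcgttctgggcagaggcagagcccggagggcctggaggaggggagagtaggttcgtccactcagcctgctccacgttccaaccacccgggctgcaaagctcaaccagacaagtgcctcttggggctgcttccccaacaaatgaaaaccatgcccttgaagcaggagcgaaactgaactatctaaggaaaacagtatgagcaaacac

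The Cldn4 window holds 2 AP-1 sites, 1 E2 box and 1 GC box, and the Cldn3 window holds 1 GC box. Neither window of Cldn18 matches these motifs, nor a TATA box (TATAAA), a Grainyhead-like site (AACCNGTT) or the NKX2-1 core (CTCAAG), searched the same way. Of 32851 RefSeq promoter windows of this length, 6.75% hold the AP-1 site, 17.2% the E2 box, 32.7% the GC box, 12.4% the TATA box, 1.79% the Grainyhead-like site and 13.3% the NKX2-1 core. All 9 genes matched a RefSeq promoter, with 14 windows in all, of which those of Ocln and those of Marveld2 overlap each other. Over these, 9 windows held a GC box, 6 an E2 box, 2 an AP-1 site, 2 a TATA box, 2 the NKX2-1 core and 0 the Grainyhead-like site. The AP-1 sites were in the windows of Cldn4 and F11r, and the NKX2-1 core was in those of Ocln and F11r. A match says only that these letters are there.

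Cldn7, which is found along the lateral membrane as well as at the junction, gave a different picture in each unit. It was at 48.3 and 36.5 FPKM in KO-labelled libraries, against 48.9 and 37.8 FPKM in WT, and the groups overlapped. The means were 42.4 ± 8.36 FPKM in KO-labelled and 43.4 ± 7.90 FPKM in WT libraries (SD, n = 2 each), with a log2 difference of -0.03 (SE 0.245, limma adjusted p = 0.990). In fragments it was at 37.7 and 45.9 CPM in the KO-labelled libraries, against 62.2 and 51.3 CPM in WT, with no overlap of the groups, and edgeR put the difference at -0.45 (adjusted p = 0.999). The deposited count per FPKM came to 5.47 in KO replicate 1 and 9.46 in KO replicate 2, against 9.20 and 9.85 in WT. KO replicate 1 thus gave fewer counts for each unit of FPKM than the other libraries, and the sources used here do not give the length used for it.

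Taking all claudins together, the table holds 33 genes named as claudins in GENCODE M21, of which 16 had no fragment in any library, 8 had a fragment in every library and 6 averaged 1 FPKM or more. Their FPKM summed to 585 and 697 in the KO-labelled libraries, against 699 and 673 in WT. Cldn18 made up 70.3% and 70.5% of that sum in the KO-labelled libraries, against 65.5% and 66.4% in WT. Cldn3 made up 19.0% and 20.2% in the KO-labelled libraries, against 24.3% and 24.4% in WT. Neither pair of shares overlapped, and shares of one sum are not independent of each other. Cldn7 made up 8.26% and 5.23% in the KO-labelled libraries, against 7.01% and 5.61% in WT. By recovered fragments the mean share of Cldn18 was 2.59 percentage points higher in the KO-labelled libraries, in place of 4.43 by FPKM, and that of Cldn3 was -2.01 points apart in place of -4.73.

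**Figure D4:**
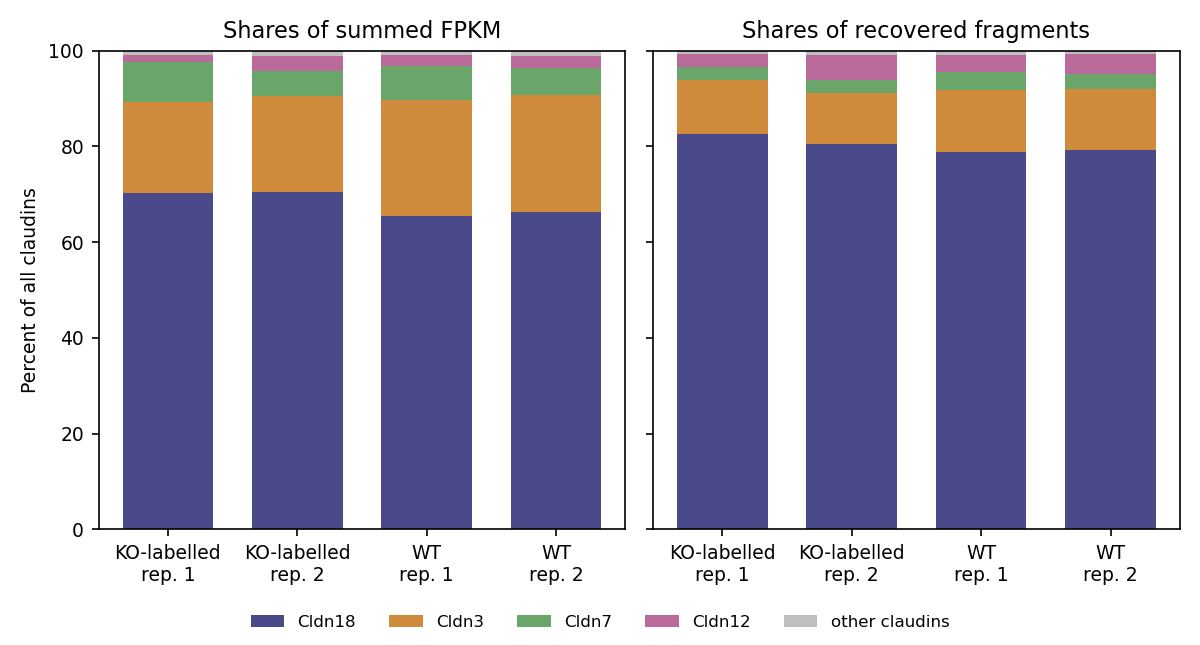
Share of each claudin in the sum over 33 claudin genes, in percent, by FPKM (left) and by recovered fragments (right), 1 bar per library with the KO-labelled libraries on the left. By FPKM Cldn18 takes 70.3% and 70.5% in the KO-labelled libraries and 65.5% and 66.4% in WT, and Cldn3 the next largest part.

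Of the other claudins at 1 FPKM or more on average, Cldn12, which lacks the usual scaffold-binding tail, was at 8.82 and 21.8 FPKM in KO-labelled libraries, against 16.4 and 16.8 FPKM in WT. KO replicate 1 was the lowest library and KO replicate 2 the highest. Cldn15, a pore-forming claudin, was at 2.45 and 1.92 FPKM in KO-labelled libraries, against 2.78 and 1.63 FPKM in WT, with overlap. Cldnd1, a claudin domain protein that the table lists as Cldn25 and that is not among the 33, was at 5.73 and 6.89 FPKM in KO-labelled libraries, against 2.26 and 0.762 FPKM in WT. Its groups lay apart in both units, and its log2 difference of 1.60 (SE 0.387) did not pass (limma adjusted p = 0.948). Cldn34c1, whose function is little known, was at 0.0263 and 2.39 FPKM in KO-labelled libraries, against 0.379 and 1.21 FPKM in WT, with overlap.

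Ocln encodes occludin, which regulates the junction without being needed for strand formation, and its direction depended on the unit. It was at 21.2 and 15.7 FPKM in KO-labelled libraries, against 14.2 and 13.5 FPKM in WT, with no overlap. The means were 18.5 ± 3.88 FPKM in KO-labelled and 13.8 ± 0.474 FPKM in WT libraries (SD, n = 2 each), with a log2 difference of 0.38 (SE 0.241, 95% interval -0.21 to 0.97, limma adjusted p = 0.948). In fragments Ocln was at 42.2 and 53.2 CPM in the KO-labelled libraries, against 48.5 and 48.3 CPM in WT. Here KO replicate 1, the highest in FPKM, was the lowest library, and edgeR put the difference at -0.03 (adjusted p = 0.999). The deposited count per FPKM of Ocln came to 13.9 in KO replicate 1 and 25.5 in KO replicate 2, against 24.8 and 25.9 in WT.

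Marveld2 encodes tricellulin, the protein of corners between cells, and lies 64.253 kb from Ocln between start sites on chromosome 13. It was the gene of the set that stood higher in both KO-labelled libraries in both units. Its values were 12.5 and 10.8 FPKM in the KO-labelled libraries, against 9.72 and 9.98 FPKM in WT. The means were 11.7 ± 1.23 FPKM in KO-labelled and 9.85 ± 0.188 FPKM in WT libraries (SD, n = 2 each). Marveld2 did not pass, at a log2 difference of 0.22 (SE 0.229, 95% interval -0.34 to 0.78, limma adjusted p = 0.953). In fragments it was at 37.4 and 36.1 CPM in the KO-labelled libraries, against 29.997 and 31.5 CPM in WT, and the counting intervals of the groups overlapped.

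Tjp1 encodes ZO-1, the scaffold that binds claudin and occludin tails and links them to actin, and it was high in a single library. It was at 59.4 and 33.8 FPKM in KO-labelled libraries, against 33.4 and 35.1 FPKM in WT. KO replicate 2 lay between the WT libraries, and KO replicate 1 far above them. The means were 46.6 ± 18.1 FPKM in KO-labelled and 34.3 ± 1.24 FPKM in WT libraries (SD, n = 2 each). The log2 difference of 0.38 (SE 0.2999, limma adjusted p = 0.948) became -0.02 when KO replicate 1 was left out and 0.78 when KO replicate 2 was (adjusted p = 0.0675). The fragments gave 376 and 257 CPM in the KO-labelled libraries, against 270 and 275 CPM in WT, with KO replicate 1 again highest, and edgeR put the difference at 0.21 (adjusted p = 0.999). The deposited count per FPKM of Tjp1 came to 44.4 in KO replicate 1 and 57.3 in KO replicate 2, against 58.7 and 56.8 in WT. This is the library that held fast skeletal muscle RNA, at 1056 FPKM over 8 genes, and the part of that RNA in the level of Tjp1 was not tested.

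Tjp3 encodes ZO-3, a scaffold of epithelial cells, and was slightly lower in both KO-labelled libraries. It was at 15.7 and 13.1 FPKM in KO-labelled libraries, against 17.0 and 17.2 FPKM in WT. The means were 14.4 ± 1.83 FPKM in KO-labelled and 17.1 ± 0.153 FPKM in WT libraries (SD, n = 2 each), and limma put the difference at -0.24 on the log2 scale (SE 0.220, adjusted p = 0.948). In fragments it was at 57.3 and 43.2 CPM in the KO-labelled libraries, against 58.6 and 59.4 CPM in WT. KO replicate 1 was thus within counting error of WT, and KO replicate 2 was the low library. The gene shares its locus with Apba3 in the deposited table. In the annotation Wbscr25 overlaps Cldn3, Gm16004 overlaps Cldn18, Gm24261 overlaps Marveld2, and Gm44792, Gm44794 and Gm44795 overlap Tjp1. The sources used here do not give whether the authors counted by strand, so reads of overlapping genes cannot be told apart.

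F11r encodes junctional adhesion molecule A, an immunoglobulin-type protein that recruits polarity proteins. It was at 47.5 and 55.0 FPKM in KO-labelled libraries, against 59.1 and 56.1 FPKM in WT, below WT without overlap. The means were 51.3 ± 5.28 FPKM in KO-labelled and 57.6 ± 2.11 FPKM in WT libraries (SD, n = 2 each), with a log2 difference of -0.17 (SE 0.196, limma adjusted p = 0.961). In fragments the order was the opposite, at 142 and 149 CPM in the KO-labelled libraries, against 141 and 135 CPM in WT, and edgeR gave 0.07 (adjusted p = 0.999). The deposited count per FPKM was 21.01 and 20.4 in the KO-labelled libraries, against 17.2 and 17.5 in WT, so here both KO-labelled libraries differed from WT.

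The wider junction of the cell was compared in the same fit, with 104 further genes of tight junctions, adherens junctions and desmosomes and their epithelial regulators in the table. Of these, 76 were tested, 38 were higher and 38 lower in the KO-labelled libraries, 0 were called, 2 (Cldnd1 and Ctnnb1) had an unadjusted p under 0.05, and the median log2 difference was 0.0042. On recovered fragments 32 were higher and 48 lower of 80, with a median of -0.047 and 0 called. Over all genes in that edgeR fit 51.9% were higher, with a median of 0.016. The groups lay apart in FPKM for 36.8% of them (11 below and 17 above WT), beside 35.1% of all genes tested, and in CPM for 38.2% (18 below and 11 above), beside 33.5%. In bulk RNA of this kind, fewer cells of a type and less RNA per cell cannot be told apart.

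Among 32 tested plaque and polarity genes, 19 were higher and 13 lower, with a median of 0.085. Pard3, a polarity scaffold that F11r binds, was at 88.2 and 62.5 FPKM in KO-labelled libraries, against 48.1 and 51.2 FPKM in WT. Patj, of the Crumbs polarity complex, was at 79.3 and 47.6 FPKM in KO-labelled libraries, against 33.6 and 42.9 FPKM in WT. For both genes the KO-labelled libraries were above WT in either unit, with log2 differences of 0.57 for Pard3 and 0.68 for Patj (limma adjusted p = 0.948 for each). With edgeR the differences were smaller, 0.31 for Pard3 and 0.30 for Patj (adjusted p = 0.999 for each). The deposited count per FPKM of Pard3 was 25.7 and 31.0 in KO replicates 1 and 2, against 33.7 and 34.4 in WT. That of Patj was 24.4 and 34.9, against 43.9 and 33.5 in WT, so FPKM of both genes is less certain. Tjap1, a ZO-associated protein, was at 1.89 and 3.52 FPKM in KO-labelled libraries, against 5.64 and 3.91 FPKM in WT, below it in either unit.

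Of 12 adherens junction genes, 7 were higher and 5 lower by FPKM, and 5 higher and 7 lower by fragments. Ctnnb1, which encodes beta-catenin, had the smallest unadjusted p of that list, at 679 and 452 FPKM in KO-labelled libraries, against 363 and 346 FPKM in WT (log2 difference 0.64, limma adjusted p = 0.948). By fragments its groups overlapped, at 1314 and 1629 CPM in the KO-labelled libraries, against 1404 and 1333 CPM in WT. The deposited count per FPKM of Ctnnb1 came to 13.6 in KO replicate 1 and 27.1 in KO replicate 2, against 28.0 and 27.9 in WT. Cdh1, which encodes E-cadherin, was at 256 and 172 FPKM in KO-labelled libraries, against 183 and 170 FPKM in WT, with KO replicate 1 highest, as for Tjp1. Of 6 tested desmosome genes 1 was higher and 5 lower, and of 8 tested membrane proteins of the tight junction 3 were higher and 5 lower. Among 14 epithelial regulators, 5 were higher and 9 lower. Elf3, an epithelial transcription factor, was at 38.6 and 46.8 FPKM in KO-labelled libraries, against 33.5 and 32.5 FPKM in WT. Spint2, a protease inhibitor of epithelia, was at 125 and 195 FPKM in KO-labelled libraries, against 217 and 200 FPKM in WT. Elf3, at a log2 difference of 0.36, and Spint2, at -0.41, did not pass (limma adjusted p = 0.948 for each).

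Markers of other epithelial cells of the lung, which also express junction genes, summed to less than those of AT2 cells. Single markers were still high, with Scgb1a1 of club cells at 965 FPKM and Ager of AT1 cells at 524 FPKM on average. Cldn18 averaged 452 FPKM. Summed AT1 markers, of which all 10 were detected, were at 1083 and 788 FPKM in KO-labelled libraries, against 919 and 774 FPKM in WT. Summed club and ciliated markers, 8 genes, were at 1138 and 814 FPKM in KO-labelled libraries, against 1329 and 898 FPKM in WT. Neither sum separated the groups, and Ager and Scgb1a1 made up the largest part of each. Of the 5 club and ciliated markers tested by limma, 0 were higher and 5 lower (median log2 difference -0.21), and 0 were called. With edgeR 1 was higher and 5 lower. Of the 10 AT1 markers, 3 (Pdpn, Rtkn2 and Clic5) were below WT in both KO-labelled libraries in either unit, and 0 were above. Over all genes tested, 11.5% were below and 11.8% above in this way. Pdpn, for example, was at 2.41 and 2.32 FPKM under the KO label, against 4.25 and 4.48 FPKM in WT. With limma 4 of the 10 AT1 markers were higher and 6 lower, with a median log2 difference of -0.22. With edgeR 2 were higher and 8 lower, with a median of -0.39, and 0 were called in either fit. The part of these cells in the levels of the junction genes was not tested.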

How the data were processed

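Per the submitters' processing notes the tools were cutadapt 1.9.3, HISAT2 2.0.4, Cufflinks and Cuffdiff 2.2.1 with build mm10 (parameters not given in the sources used here). Per the file headers, the authors deposited 1 FPKM column and 1 count column per library. The deposited counts are estimated counts. Within a library they step by a fixed amount, and in units of that step 90.9% to 92.6% of positive values were whole within 0.05. These recovered fragments, rounded, give CPM, exact counting intervals and floors of 3 fragments (0.316 to 0.720 CPM), which cover counting error only.

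KO-labelled minus WT was tested with limma-trend on log2(FPKM + 1) (version 3.58.1 under R 4.3.3), two-sided, over the 11055 genes at 1 FPKM or more in at least 2 libraries, with Benjamini-Hochberg adjustment at 0.05. This scale understates changes of low genes. Alternatives were edgeR 4.0.16 (quasi-likelihood), DESeq2 1.42.0, other pseudocounts, filters and scalings, a replicate block, leaving out each library and, added after seeing the data, a loess correction (span 0.3). An exact permutation test of 2 against 2 libraries cannot go below p = 0.333 and was not used. The procedure was also run on simulated data, drawn with the same dispersion for all genes and both groups. The groups here differed in spread, so that run does not show how well the tests work on these libraries.

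The 9 genes and all lists were chosen with earlier results of these data known. All 9 are named, with Fbxo45, Fbxo46 and claudins averaging 1 FPKM. Of the plaque, adherens junction and regulator lists, only some of the genes of smallest p or highest level are named. Dlg1 and Ctnnd1, with a smaller p than Tjap1 and Cdh1 of their lists, are left out. No gene of the desmosome list or of the further tight junction membrane proteins is named. Of gene identifiers, 96.8% are in GENCODE M21. No 100-base stretch sampled from the 9 genes' transcripts occurs in another gene (0%).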

Additional observations from a re-analysis of the deposited data

How the results depend on the processing

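None of the 8 genes tested by limma passed in any of the 16 settings, nor did Cldn4 in the 2 that gave it an adjusted p. The lowest adjusted p was 0.0675, for Tjp1 without KO replicate 2, where that of Cldn3 was 0.0746. Over all genes, DESeq2 called 7 and edgeR with no filter 5, and leaving out 1 library gave 0 to 198 calls (198 without KO replicate 2, 2 without WT replicate 2), with 0 to 2 among the other junction genes (Ctnnb1 and Ppp1r9a). These fits take the lone library's spread from the other group. The median over the 8 genes was 0.034 with equal FPKM totals, -0.061 with edgeR, 0.029 after the loess correction and -0.12 to 0.078 when 1 library was left out. With Cldn4 as a ninth gene it was -0.089 with DESeq2 and -0.094 with edgeR and no filter (-0.056 and -0.061 without Cldn4). The median of the other junction genes was 0.051 with equal totals, -0.047 with edgeR, -0.034 with edgeR and no filter and -0.034 to 0.10 when 1 library was left out. Signs turned for Cldn7 (0.021 with equal totals, 0.094 after the loess correction, -0.23 to 0.16 leaving out 1 library), Cldn18 (0.047 with equal totals, -0.14 to 0.12), Tjp1 (-0.019 to 0.78), Ocln (-0.028 with edgeR with or without the filter, -0.023 with DESeq2) and F11r (0.072 with edgeR with or without the filter, 0.076 with DESeq2). Cldn3, Tjp3 and Marveld2 kept their sign in all 16 settings, but leaving out 1 library moved Cldn3 between -0.58 and -0.25, Tjp3 between -0.36 and -0.12 and Marveld2 between 0.12 and 0.32. By fragments the share difference was 2.59 points for Cldn18 and -2.01 for Cldn3, and leaving out 1 library gave 4.01 to 4.84 and -5.29 to -4.17 by FPKM. The causes were not tested. Replicate deviations of the groups correlated at 0.026 over 11055 genes, so no shift shared by replicate number was seen. With a single pair of libraries a group, this cannot exclude a pairing. The replicate block called 0 genes, as did the fit without it. With 2 libraries a group, even the narrowest 95% interval of the 8 genes, that of F11r, ran from -0.65 to 0.31.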

Other observations

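Cldn1, a barrier claudin that the filter left out, was singled out after its values were seen. It had 12 and 17 fragments in the KO-labelled libraries, against 1 and 0 in WT. Summed, 29 fragments gave 1.75 CPM (exact 95% counting interval 1.17 to 2.51) in the KO-labelled libraries, against 1 fragment and 0.0809 CPM (0.00205 to 0.451) in WT. With edgeR and no filter its adjusted p was 0.999.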
